A study of Mus musculus with 16 samples.

Results

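S1pr1, S1pr3 and S1pr4, which encode receptors for sphingosine 1-phosphate, and Klf2 and Cd69, which act on the same cell-exit route, are described here in antibody-gated lymphocytes of the mouse spleen. These 5 genes, of 11713 listed in the table, were set by name, with no threshold on their values, and all 5 were found by symbol. They were chosen with earlier results of these data known. The mice were 9 months old, female and of the BALB/cJ strain, and the assay was CITE-seq, in which each droplet yields counts of RNA molecules (UMIs) and of antibodies carrying DNA tags. The labels give 16 samples in 4 groups of 4, RNA and antibody-tag samples of each of 2 sources, Main1 and Main2, with no treatment or mutant allele named. The tables do not separate the 4 samples of a group, so each source was taken as 1 library. The design text speaks of 2 spleens, but no label ties a source to an animal, so a p-value here measures no more than how these 2 libraries vary.

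Sphingosine 1-phosphate is abundant in blood and lymph and scarce in lymphoid tissue, and lymphocytes follow this gradient when they leave an organ. S1PR1 is the main exit receptor of naive T and B cells and also holds marginal zone B cells at the blood-exposed border of the splenic follicle, where S1PR3 is known as a second receptor of these cells. KLF2 is a quiescence factor that drives S1pr1 in T cells, and mouse B cells that lack it shift towards a marginal zone phenotype. CD69 is an early activation antigen that binds S1PR1 and takes it off the surface, and S1PR4 is a further receptor of haematopoietic cells with a less settled role.

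In GRCm38 (mm10) S1pr1 lies on chr3:115710433-115715072 on the minus strand, S1pr3 on chr13:51408639-51422797 on the plus strand and S1pr4 on chr10:81497747-81500132 on the minus strand. Klf2 lies on chr8:72319033-72321656 on the plus strand and Cd69 on chr6:129267325-129275436 on the minus strand. All 5 are protein-coding genes. S1pr3 overlaps Gm32834 on the opposite strand. No source used here states the strand setting of the counting, so whether it told reads of this overlap apart is not known here. The promoters of Klf2 and S1pr3 are shown because these genes had the lowest and the highest fold change of the set between marginal zone and follicular B cells. The runs below are the 250 bases before the RefSeq start (GRCm38.p6, plus strand, 5′ to 3′). Capitals mark CACCC or its reverse complement GGGTG, the core box of KLF factors, and the 10-base core motif of MEF2 factors.
Klf2 promoter, chr8:72318812-72319061: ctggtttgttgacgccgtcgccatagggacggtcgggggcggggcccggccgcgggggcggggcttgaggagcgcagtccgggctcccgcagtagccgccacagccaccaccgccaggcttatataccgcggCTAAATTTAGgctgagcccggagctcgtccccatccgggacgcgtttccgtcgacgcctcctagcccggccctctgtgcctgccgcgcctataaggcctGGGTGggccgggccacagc
S1pr3 promoter, chr13:51408368-51408617: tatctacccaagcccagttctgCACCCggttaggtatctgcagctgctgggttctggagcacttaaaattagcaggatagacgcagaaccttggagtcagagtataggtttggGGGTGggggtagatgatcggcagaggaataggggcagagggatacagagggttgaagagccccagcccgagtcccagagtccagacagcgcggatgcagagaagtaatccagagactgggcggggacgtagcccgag
The CACCC box stood 2 times in the S1pr3 window and 1 time in the Klf2 window, counting both strands, and 52.0% of the 32851 promoters of the same length held at least 1. The MEF2 pattern stood 118 bases before the Klf2 start, and 3.20% of promoters held it. This share counts any middle bases, so it is not the share of a stricter MEF2 motif. S1pr4 held 1 CACCC box. TGGGAA (the core of RBPJ, in 21.6% of promoters) and GTAAACA (FOXO, in 3.17%) were in none of the 3 windows. Such matches describe letters in a window and say nothing of binding.

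The table held 7097 droplets, 3179 in Main1 and 3918 in Main2, with 7964712 and 10174799 UMIs and medians of 1789 and 1778 UMIs per droplet. Levels are CPM, a gene's UMIs scaled to the UMI total of its population in 1 library, and are compared between populations for 1 gene at a time. Of 8 populations, the marginal zone gate (CD21/35-high, IgD-low) had 473 droplets, the B-1-like gate (IgM-high, IgD-low, CD5-high) 255 and the follicular gate (IgD-high) 1834. CD4 T cells gave 108 CD44-high and 109 CD44-low droplets, CD8 T cells 19 and 19, and NK cells 107. No droplet was in more than 1 population, and 14 barcodes occurred in both libraries.

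Marker genes set the gates apart as their names say for most populations. All 8 of the marginal zone markers tested were higher in the marginal zone gate than in the follicular gate, and all 7 of the follicular markers were lower, of which DESeq2 called 8 and 4. NK markers were higher in the NK gate than in the T gate for 11 of 11 tested with either tool. With edgeR, effector markers were higher in CD44-high than in CD44-low CD4 T cells for 8 of 9 tested, and naive markers were lower for 5 of 7, while DESeq2 called 3 of the 9 and 0 of the 7 (7 naive markers had an unadjusted edgeR p under 0.05). In the B-1-like gate 4 of 5 tested B-1 markers were higher (3 with DESeq2), among them the B-1 regulator Bhlhe41 at 118 and 93.3 CPM, against 6.2 and 12.2 CPM in the follicular gate. That gate also held plasma cell RNA. Its summed plasma cell markers were 13647 and 24732 CPM, against 202 and 1224 CPM in the follicular gate, and 16 of its 255 droplets had 10 or more UMIs of Jchain and carried 20.6% of its UMIs.

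By the mean of the 2 libraries S1pr1 was highest in CD44-low T cells and lowest in NK cells. CD8 CD44-low T cells averaged 337 CPM, but from 9 UMIs, with 511 CPM in Main1 (3 UMIs) and 163 CPM in Main2. Their Main2 value was below those of marginal zone (213 CPM) and CD4 CD44-high cells (170 CPM), and their pooled value was 211 CPM. CD4 CD44-low T cells averaged 334 CPM, with a pooled value of 336 CPM. The ranges of these neighbours overlapped. Marginal zone B cells (188 CPM) and CD44-high CD4 T cells (187 CPM) came next with overlapping ranges, then follicular B cells (134 CPM), CD8 CD44-high T cells (117 CPM) and B-1-like B cells (101 CPM). NK cells had 29.4 CPM from 5 UMIs, below every other population in both libraries. Ly6G-positive droplets, a neutrophil gate used as background, had 10.1 CPM from 2 UMIs.

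S1pr3 had its highest level in the marginal zone gate, above every other population in both libraries. It stood at 64.1 CPM in Main1 and 65.7 CPM in Main2, from 77 UMIs in 72 droplets. In the B-1-like gate it was 16.9 and 3.5 CPM from 8 UMIs, and in the follicular gate 3.1 and 4.9 CPM from 13 UMIs. T cells of the whole CD3 gate had 5 UMIs (1.2 and 3.6 CPM). NK cells and CD8 CD44-high T cells had 0 UMIs, where 3 counts would be 15.7 and 34.99 CPM.

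S1pr4 and Klf2 had their lowest levels in the marginal zone gate. S1pr4 averaged 43.6 CPM there, 69.4 CPM in the B-1-like gate and 129 CPM in the follicular gate. Its T and NK levels ran from 146 CPM (CD4 CD44-high) to 213 CPM (CD4 CD44-low) and 364 CPM (CD8 CD44-low). The last value rests on 11 UMIs, with 511 CPM in Main1 (3 UMIs) and 217 CPM in Main2. From the follicular gate upwards every neighbour in this order overlapped. Klf2 averaged 49.8 CPM in the marginal zone gate, and the other 7 populations ran from 211 CPM (CD8 CD44-high) to 409 CPM (NK), each overlapping the next. Cd69 was highest in the follicular gate at 155 CPM, with overlapping neighbours down to 77.9 CPM in CD4 CD44-high cells, and lower in NK cells (46.1 CPM) and CD8 CD44-low cells (27.1 CPM, 2 UMIs).

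**Figure D1:**
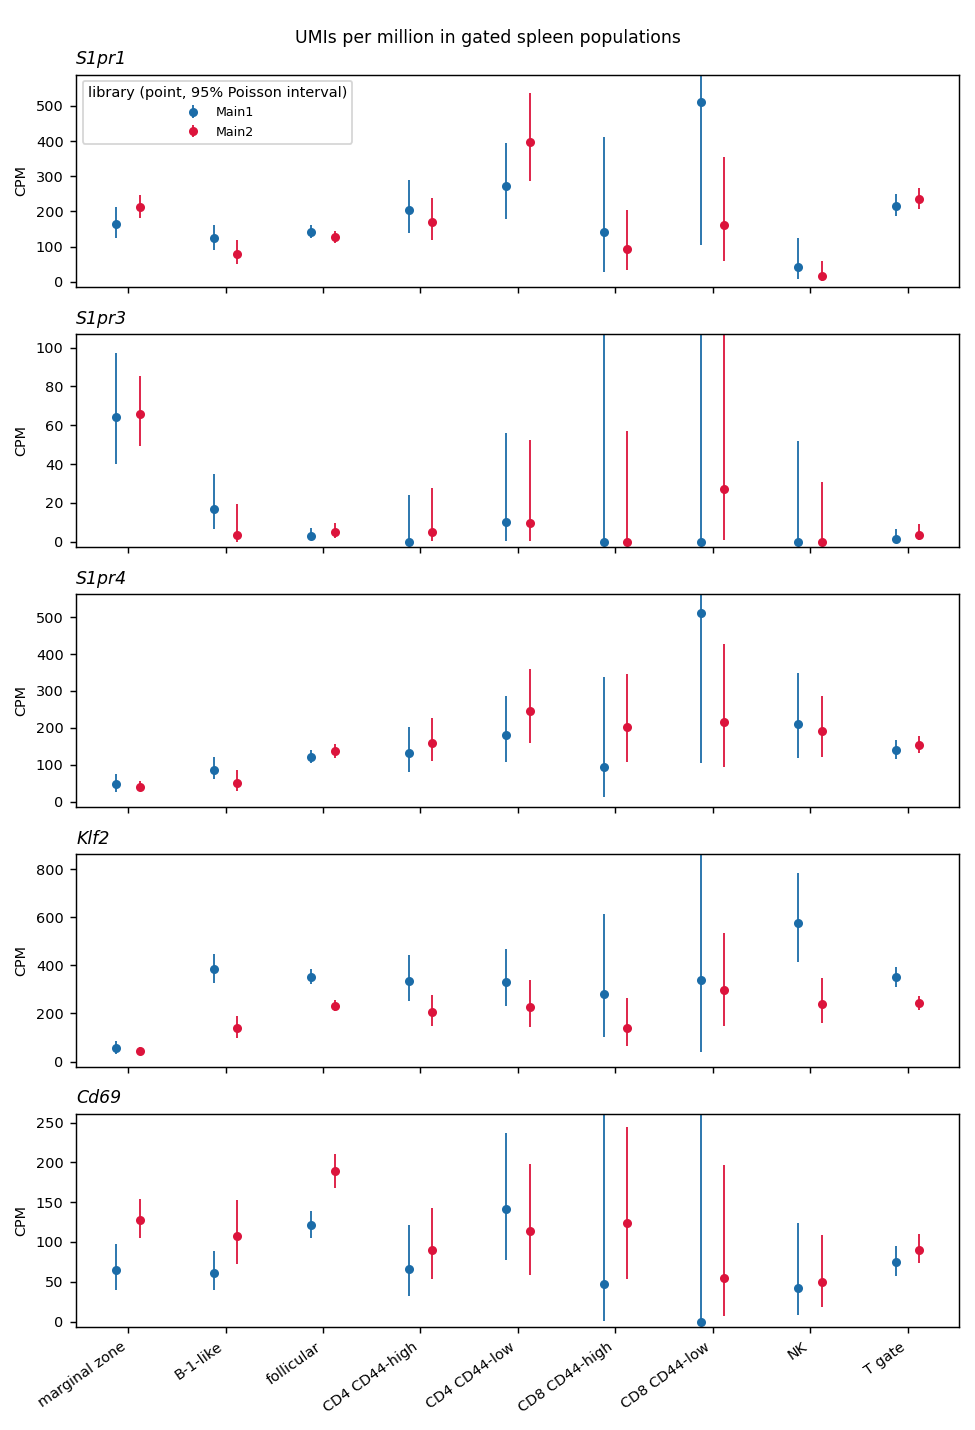
Level of each gene (vertical axis, CPM) in the 8 populations and the whole T gate, with 1 point per library and its exact 95% Poisson interval, cut off at the top of a panel for the small CD8 gates. S1pr3 stands at 64.1 and 65.7 CPM in the marginal zone gate, where Klf2 and S1pr4 have their lowest points.

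Marginal zone B cells differed from follicular B cells in all 5 genes. S1pr3 and S1pr1 were higher, and Klf2, S1pr4 and Cd69 were lower. All 5 members passed an edgeR quasi-likelihood test at an adjusted p under 0.05, against 12.3% of the 6533 genes tested (6.86% higher, 5.48% lower). DESeq2 called 3 of the 5. Members and gates were chosen with earlier results of these data known, so the count of members called is no independent support. S1pr3 had the largest difference of the set, with the levels given above and libraries that did not overlap. Its log2 fold change was 4.11 (SE 0.35, edgeR adjusted p = 3.66e-29).

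S1pr1, the exit receptor, had 163 and 213 CPM in marginal zone cells of Main1 and Main2, against 141 and 126 CPM in follicular cells. Both marginal zone values were above both follicular values, by little in Main1. The log2 fold change was 0.68 (SE 0.162, edgeR adjusted p = 4.5e-04), and the log2 ratio within a library was 0.20 in Main1 and 0.71 in Main2. Fitted on Main1 alone, with no test, the fold change was 0.37. DESeq2 gave 0.65 with an adjusted p of 0.332.

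Klf2 had 55.4 and 44.2 CPM in marginal zone cells, against 352 and 231 CPM in follicular cells, and the groups lay far apart. The log2 fold change was -2.35 (SE 0.196, edgeR adjusted p = 2.51e-30). S1pr4 had 46.6 and 40.6 CPM in marginal zone cells, against 122 and 136 CPM in follicular cells, again without overlap. Its log2 fold change was -1.47 (SE 0.222, edgeR adjusted p = 1.69e-09).

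Cd69 had 64.1 and 128 CPM in marginal zone cells, against 121 and 189 CPM in follicular cells. The groups overlapped across libraries, while within each library the marginal zone value was the lower one. The log2 fold change was -0.52 (SE 0.181, edgeR adjusted p = 0.0384). This call was lost with other gate boundaries (log2 fold change -0.47, adjusted p = 0.153), with droplets free of other-lineage UMIs (-0.46, 0.11), without the library block (-0.41, 0.381) and with DESeq2 (-0.56, 0.737), where the fold change stayed close to that value.

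Droplets of the marginal zone gate were deeper than follicular ones (medians 2153 and 1554 UMIs), so shares of droplets with a UMI were read after thinning each droplet to 1000 UMIs, which left none out. S1pr3 was then seen in 7.19% of marginal zone droplets (exact 95% interval 5.03 to 9.90) and 0.491% of follicular droplets (0.225 to 0.930), with 0.340% in the T gate as background. Klf2 was seen in 5.50% of marginal zone and 24.97% of follicular droplets, S1pr4 in 2.96% and 13.0%. S1pr1 was seen in 18.2% of marginal zone and 12.9% of follicular droplets, and Cd69 in 9.51% and 14.0%. Without thinning the marginal zone and follicular shares were 15.2% and 0.654% for S1pr3, 9.94% and 36.5% for Klf2, 9.30% and 20.1% for S1pr4, 36.8% and 19.7% for S1pr1, and 20.3% and 21.7% for Cd69. In the Ly6G gate the thinned shares were 7.02% for Klf2 and S1pr4, 1.75% for S1pr1 and 0 droplets for S1pr3 and Cd69. For Klf2 and S1pr4 this was 4 of 57 droplets each (exact 95% interval 1.95 to 17.0). The marginal zone shares of Klf2 and S1pr4 were no higher than these. The Ly6G gate averaged 57.7 CPM for Klf2 and 81.7 CPM for S1pr4, against 49.8 and 43.6 CPM in the marginal zone gate. Whether these Ly6G counts are background was not tested, so no background level was set for these 2 genes. Their marginal zone levels cannot be told from the level of this gate.

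**Figure D2:**
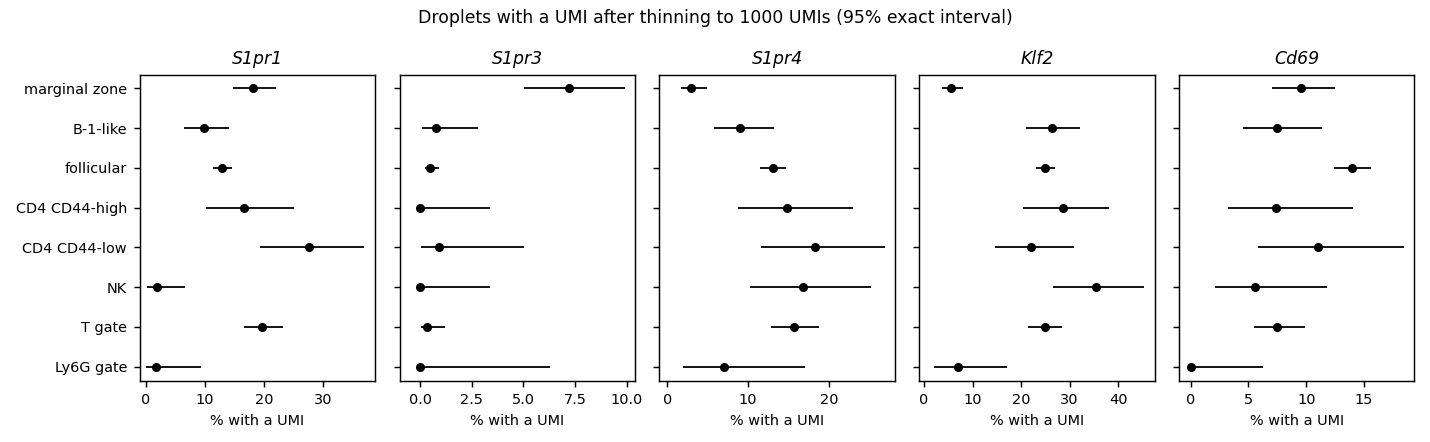
Share of droplets with at least 1 UMI after thinning to 1000 UMIs (horizontal axis, percent, exact 95% interval) for each gene and population. S1pr3 reaches 7.19% in the marginal zone gate, and S1pr1 is at its lowest among lymphocytes in NK cells.

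Of the 47 measured genes of the wider exit and homing list, 37 were tested between marginal zone and follicular cells, with 1 higher and 9 lower in edgeR. Over all genes tested edgeR called 12.3%. DESeq2 called 2 of the 37 and left 11 without an adjusted p. The list's median log2 fold change was -0.18, against 0.01 over all genes tested. The 1 higher gene was Plpp3, a lipid phosphatase that can break down sphingosine 1-phosphate (43.7 and 31.1 CPM, against 13.0 and 14.0 CPM; log2 fold change 1.54). Among the lower genes were the homing receptors Cxcr4 (-1.69) and Ccr7 (-1.32), the integrin chain Itgb7 (-1.39), the receptor P2ry10 (-1.63) and the transcription factors Klf3 (-0.81) and Klf6 (-0.70). Arhgef1, an exchange factor downstream of G12 and G13, fell by 0.44 and the transcription factor Mef2c by 0.39 on the log2 scale. Ccr7 and Cxcr4 are also in the list of follicular markers.

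Other gene groups moved with this comparison. Of 11 tested immediate early or dissociation genes, 7 were lower in the marginal zone gate, where the list summed to 775 and 910 CPM, against 1559 and 1721 CPM in the follicular gate. Hspa1b was at 0 in the marginal zone gate, but it was also low in follicular cells (5.6 CPM in Main1 and 0 CPM in Main2). Erythroid genes were lower for 5 of 5 tested, with summed levels of 297 and 278 CPM, against 4245 and 3356 CPM in the follicular gate, and Alas2 at 0 in the marginal zone gate. Neutrophil genes were also lower for 5 of 5 tested, summing to 242 and 253 CPM, against 1138 and 348 CPM. DESeq2 called 2 of the 11 immediate early genes, 4 of the 5 erythroid genes and 0 of the 5 neutrophil genes (5 had an unadjusted edgeR p under 0.05). Their part in the differences of the 5 genes was not tested.

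Over the whole B gate, droplets of both libraries were ordered by the CD21/35 antibody into 5 bins. The marginal zone gate was drawn from the upper end of this scale, so the bins share droplets with the comparison above and add no independent one. The highest bin held 1093 droplets, against 473 in the marginal zone gate, so it also holds B cells outside that gate. S1pr3 had 13.8 and 5.2 CPM in Main1 and Main2 in the lowest bin and 36.7 and 38.9 CPM in the highest. Klf2 had 377 and 161 CPM in the lowest bin, 308 and 230 CPM in the middle and 213 and 103 CPM in the highest. S1pr1 was 103 and 95.1 CPM at the low end and 162 and 187 CPM at the high end. S1pr4 and Cd69 peaked in between, Cd69 at 148 CPM in the second bin of Main1 and 193 CPM in the middle bin of Main2. Across 5 bins of the IgD antibody, S1pr3 ran the other way, with 29.4 and 26.2 CPM in the lowest bin and 11.8 and 13.6 CPM in the highest.

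**Figure D3:**
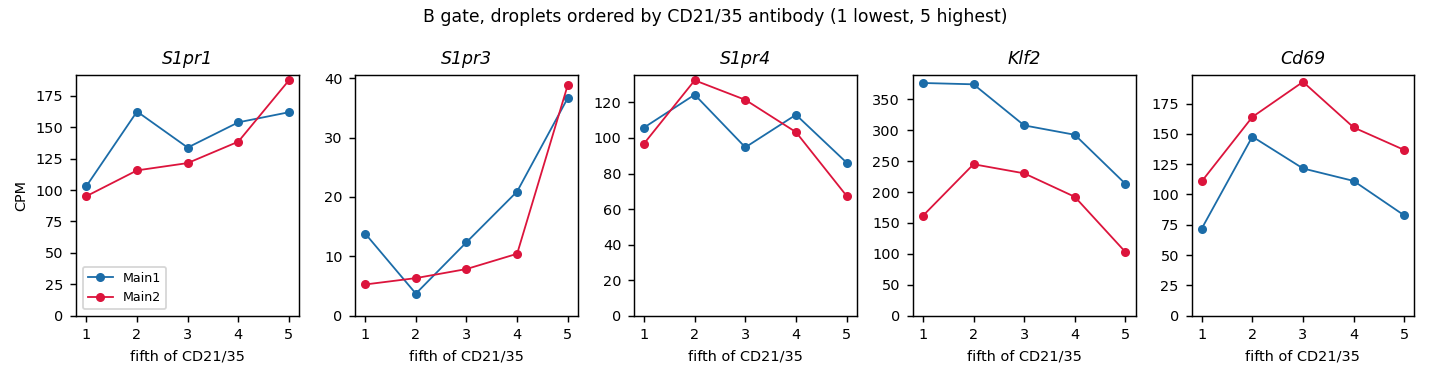
Level of each gene (vertical axis, CPM) in 5 bins of the CD21/35 antibody within the B gate, from lowest (1) to highest (5), with 1 line per library. S1pr3 reaches 36.7 and 38.9 CPM in the highest bin, and Klf2 is lowest there in both libraries.

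B-1-like B cells did not pass the test against follicular cells for any of the 4 members tested. edgeR called 0 of 4, with 2 at an unadjusted p under 0.05, DESeq2 called 0, and 3.5% of the 6236 genes tested were called (2.37% higher, 1.12% lower). Cd69 had 60.4 and 107 CPM in B-1-like cells, against 121 and 189 CPM in follicular cells (log2 fold change -0.68, 95% interval -1.07 to -0.28, edgeR adjusted p = 0.0877). S1pr4 had 87.0 and 51.8 CPM, against 122 and 136 CPM in follicular cells (-0.61, interval -1.11 to -0.11, edgeR adjusted p = 0.236). Within each library both genes had the lower value in B-1-like cells. With the antibody log-ratio taken within each droplet both passed (edgeR adjusted p = 0.0021 for each), as they did with RLE size factors (0.0157 for Cd69, 0.0482 for S1pr4) and with genes of 10 or more UMIs (0.0079 and 0.0355). With gates set in each library Cd69 alone passed (0.0458).

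S1pr1 had 123 and 79.5 CPM in B-1-like cells, against 141 and 126 CPM in follicular cells, with a log2 fold change of -0.15 (interval -0.55 to 0.24). Klf2 had 384 and 138 CPM, against 352 and 231 CPM, so the libraries pointed opposite ways (log2 ratios 0.12 and -0.70). S1pr3, with 8 and 13 UMIs in the 2 gates, was under the 50 UMIs needed for a test. The plasma cell RNA named above moves with this gate. So do marginal zone markers, 3 of 7 tested higher (2833 and 2882 CPM summed, against 1098 and 1080 CPM), effector T markers, 5 of 7 higher (1495 and 857 CPM, against 490 and 303 CPM), and monocyte markers, 2 of 7 higher (2130 and 2388 CPM, against 1551 and 1304 CPM). The effector T list shares S100a6 and Ahnak with the B-1 list. General T markers were higher for 0 of 6 tested, summing to 126 and 111 CPM, against 124 and 118 CPM. The part of the plasma cell, marginal zone, effector T and monocyte lists in the member values was not tested. Without droplets of 10 or more Jchain UMIs, a setting added after the data were seen, the adjusted p was 0.116 for Cd69 and 0.252 for S1pr4. On the wider list, 36 genes were tested, with 1 higher and 4 lower in B-1-like cells in edgeR, which called 3.5% of all genes tested. DESeq2 called 3 of the 36 and left 8 without an adjusted p. The integrin chain Itgb1 was higher (log2 fold change 1.96), and the cannabinoid receptor Cnr2 (-2.14), Ccr7 (-0.86) and Mef2c (-0.68) were among the lower genes.

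CD44 separates antigen-experienced from naive T cells. Among CD4 T cells S1pr1 was lower in CD44-high droplets, at 204 and 170 CPM, against 272 and 396 CPM in CD44-low droplets, with no overlap. Its log2 fold change was -0.91 (SE 0.276, edgeR adjusted p = 0.0226). It was the 1 member called of 4 tested, where 11% of 1413 genes were called (5.66% higher, 5.38% lower). The CD44-middle tertile had 194 and 164 CPM, close to the CD44-high value. Fitted on Main1 alone, with no test, the fold change was -0.51. The call was lost with droplets under 4000 UMIs (log2 fold change -0.67, adjusted p = 0.26). It was also lost, at about the same fold change, with droplets free of other-lineage UMIs (-0.95, 0.171), without the library block (-0.90, 0.134), with genes of 10 or more UMIs (-0.95, 0.144) and with DESeq2 (-0.86, 0.999).

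The other members did not pass between CD44-high and CD44-low CD4 T cells. S1pr4 had 132 and 160 CPM in CD44-high cells, against 181 and 245 CPM in CD44-low cells (log2 fold change -0.59, interval -1.21 to 0.02, edgeR adjusted p = 0.274). Klf2 had 336 and 205 CPM, against 333 and 226 CPM (-0.11, interval -0.65 to 0.43), with log2 ratios of 0.01 and -0.14 within the libraries. Cd69 had 65.9 and 89.9 CPM, against 141 and 113 CPM (-0.72, interval -1.68 to 0.23, edgeR adjusted p = 0.449). On the wider list 17 genes were tested, with 2 higher and 2 lower in edgeR, which called 11% of all genes tested. DESeq2 called 1 of the 17. Itgb1 (343 and 334 CPM, against 10.1 and 9.4 CPM) and the small GTPase Rac2 (log2 fold change 0.39) were higher, and the homing receptor Ccr7 (-1.48) was among the lower genes. Erythroid markers were lower in CD44-high cells for 4 of 4 tested, with 23226 CPM in Main1 CD44-low cells, against 211 CPM in Main1 CD44-high cells. In Main2 the erythroid sums were 150 CPM in CD44-high and 274 CPM in CD44-low cells, and the S1pr1 log2 ratio was -1.18 there and -0.40 in Main1. Plasma cell markers summed to 165 and 9669 CPM in CD44-high cells, against 141 and 255 CPM in CD44-low cells. Regulatory T markers were higher for 3 of 4 tested, with 1851 and 1398 CPM in CD44-high cells, against 474 and 472 CPM in CD44-low cells. Monocyte markers were higher for 3 of 4 tested, with 441 and 2052 CPM, against 363 and 453 CPM. DESeq2 called 0 regulatory T and 0 monocyte genes, where 4 and 3 had an unadjusted edgeR p under 0.05. The part of the erythroid, plasma cell, regulatory T and monocyte lists in the S1pr1 value was not tested.

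CD8 T cells were too few for these genes. No member reached 50 UMIs over the 38 droplets, so none was tested by CD44, where 5.59% of 304 genes were called. S1pr1 had 9 UMIs in CD44-high and 9 in CD44-low cells, S1pr4 15 and 11, Klf2 15 and 13, Cd69 9 and 2, and S1pr3 0 and 1. Between the whole CD8 and CD4 gates edgeR called 0 of 4 members, with 0 at an unadjusted p under 0.05 and 2.28% of 2414 genes called (1.04% higher, 1.24% lower). DESeq2 gave these 4 no adjusted p. S1pr1 had 232 and 154 CPM in CD8 cells, against 219 and 228 CPM in CD4 cells (log2 fold change -0.22, interval -0.89 to 0.45). Klf2 had 528 and 223 CPM in CD8 cells, against 363 and 198 CPM in CD4 cells (0.46, interval -0.12 to 1.03). The intervals reach past a 1.5-fold change in both genes. For S1pr4 the log2 fold change was 0.24, with an interval of -0.43 to 0.92. Cd69 was at -0.43, with 11 UMIs in CD8 cells, of which 1 droplet held 45.5%. Of the wider list 22 genes were tested and edgeR called 0, with 3 at an unadjusted p under 0.05, while DESeq2 called 0 and left 21 without an adjusted p.

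**Figure D4:**
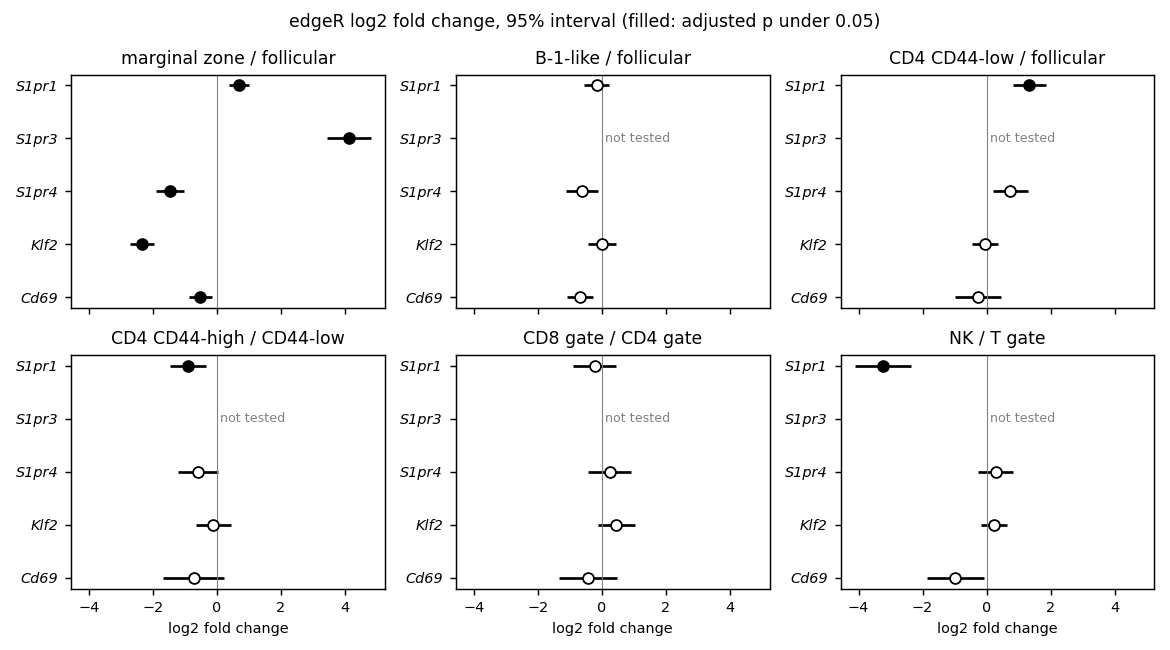
Log2 fold change from edgeR (horizontal axis) with its 95% interval for each gene in 6 comparisons, filled where the adjusted p was under 0.05. All 5 genes are filled for marginal zone over follicular cells, and S1pr1 is the filled one in 3 other panels.

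NK cells, which are known to leave tissue with S1PR5 in mice, had little S1pr1. They had 42.2 and 16.6 CPM, against 216 and 235 CPM in the T gate, far below it in both libraries. The log2 fold change was -3.24 (SE 0.447, edgeR adjusted p = 2.34e-11), and S1pr1 was 1 of 4 members called, against 12.4% of 4737 genes (5.05% higher, 7.39% lower). S1pr4 had 211 and 191 CPM in NK cells, against 140 and 154 CPM in T cells (0.29, interval -0.26 to 0.84). Klf2 had 577 and 241 CPM, against 350 and 243 CPM (0.23, interval -0.19 to 0.65). Cd69 had 42.2 and 49.9 CPM, against 74.2 and 90.4 CPM (-0.97, interval -1.87 to -0.08, edgeR adjusted p = 0.175). The S1pr3 count was 0 UMIs in NK cells and 5 in T cells. The T gate held 189 droplets positive for both CD4 and CD8a, with a median of 4372 UMIs and 49.1% of its UMIs, and whether these hold more than 1 cell was not tested. Without them, a setting added after the data were seen, the S1pr1 log2 fold change was -3.04 (SE 0.492, edgeR adjusted p = 1.86e-08).

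S1pr5, the NK receptor of the family and not one of the 5 genes, had 127 and 175 CPM in NK cells from 30 UMIs in 23 droplets, against 2.3 and 7.2 CPM in T cells from 10 UMIs. Its total stayed under the 50 UMIs needed for a test. S1pr5 had 0 UMIs in marginal zone and 3 in follicular cells, and S1pr2, the receptor of germinal centre B cells, had 0 and 3. Of the wider list 30 genes were tested between NK and T cells, with 3 higher and 4 lower in edgeR, which called 12.4% of all genes tested. DESeq2 called 2 of the 30 and left 8 without an adjusted p. The integrin chains Itgb2 (log2 fold change 1.41) and Itga4 (0.82) and the G-protein regulator Rgs2 (1.32) were higher. Ccr7 (2 UMIs in NK cells), the factor Foxo1 (-1.64), Itgb7 (-1.36) and the actin regulator Coro1a (-0.87) were lower, Itgb7 with 28.1 CPM in Main1 and 233 CPM in Main2 NK cells. Erythroid markers summed to 24259 CPM in NK cells of Main1, against 4661 CPM in T cells, and 516 CPM in Main2, against 182 CPM. S1pr1 was lower in both libraries (log2 ratios -2.11 and -3.20). The part of the erythroid markers in the S1pr1 value was not tested.

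CD4 CD44-low T cells were set against follicular B cells as the naive-type members of each lineage. This comparison shares its follicular sums with those of the marginal zone and B-1-like gates. S1pr1 had 272 and 396 CPM in the T cells, against 141 and 126 CPM in the B cells, without overlap (log2 fold change 1.34, SE 0.232, edgeR adjusted p = 0.0067), with log2 ratios of 0.90 and 1.58 within the libraries. It was 1 of 4 members called, against 8.7% of 5910 genes (4.01% higher, 4.69% lower). S1pr4 had 181 and 245 CPM, against 122 and 136 CPM (0.74, interval 0.20 to 1.28, edgeR adjusted p = 0.108). It passed with other gate boundaries (adjusted p = 0.0303). Klf2 was at 333 and 226 CPM, against 352 and 231 CPM in the B cells, with a log2 fold change of -0.04 and an interval of -0.46 to 0.37. Cd69 had 141 and 113 CPM, against 121 and 189 CPM (-0.28, interval -0.998 to 0.44).

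On the wider list 34 genes were tested in this comparison, with 4 higher and 4 lower in edgeR, which called 8.7% of all genes tested. DESeq2 called 4 of the 34 and left 8 without an adjusted p. The arrestin gene Arrb2 (log2 fold change 2.12), Ccr7 (1.76), Itgb2 (1.37) and Itgb7 (1.13) were higher in the T cells. The B-cell follicle receptor Cxcr5 and Cnr2 had 0 UMIs there, against 415 and 186 UMIs in follicular cells, and Mef2c (-5.03) and Cxcr4 (-3.93) were lower. All 6 B markers tested were lower and all 8 T markers tested were higher in the T cells. Erythroid markers summed to 23226 and 274 CPM in the T cells, against 4245 and 3356 CPM in follicular cells, with 1 of 5 tested lower. Immediate early or dissociation genes were lower for 3 of 10 tested in edgeR. DESeq2 called 0 of them, and 6 had an unadjusted edgeR p under 0.05. The part of these 2 lists in the S1pr1 value was not tested.

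Klf2 and Cd69 also differed between the libraries. Klf2 was higher in Main1 than in Main2 in 8 of 8 populations, with a log2 ratio of 0.59 in follicular cells, 1.22 in NK cells and 1.41 in B-1-like cells. In follicular cells the 5th to 95th percentile of all genes with 50 or more UMIs ran from -0.36 to 0.43. Klf2 lay inside this range of its own population in marginal zone (0.27), CD4 CD44-low (0.53) and CD8 CD44-low cells (0.18). The upper ends there were 0.53, 0.56 and 0.59. Cd69 was lower in Main1 in 7 of 8 populations, at -0.60 in follicular cells, with CD4 CD44-low cells (0.29) as the exception. It lay inside the range in these cells and in CD4 CD44-high (-0.40), CD8 CD44-high (-1.24) and NK cells (-0.20). Main1 and Main2 are 1 library each, so no test was made. Immediate early and stress genes also differed between the libraries, in both directions. In follicular cells Fos was at 61.2 and 127 CPM in Main1 and Main2, Jund at 262 and 152 CPM and Hsph1 at 43.9 and 9.2 CPM. Their part in these values was not tested. The comparisons above set populations against each other within a library.

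**Figure D5:**
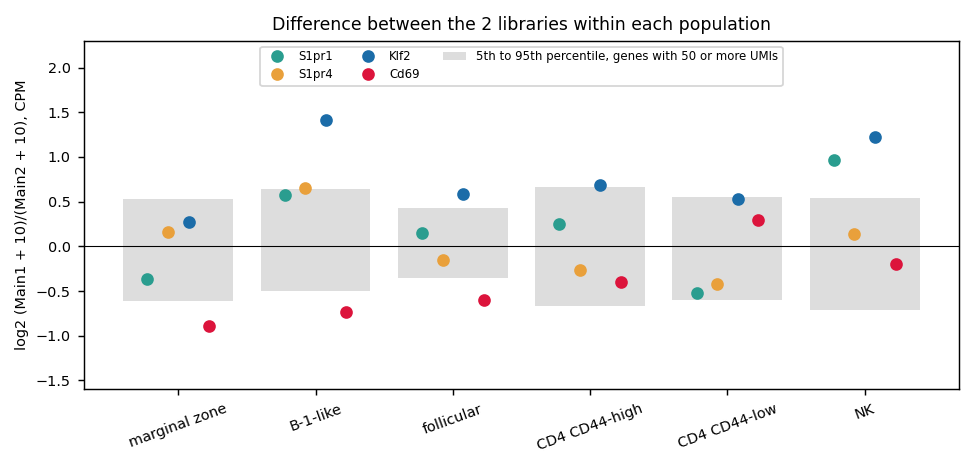
Log2 ratio of the level in Main1 over Main2 (vertical axis, CPM plus 10) for 4 genes in 6 populations, with the 5th to 95th percentile of genes of 50 or more UMIs in grey. Klf2 lies above 0 in each of these populations, and Cd69 lies below 0 except in CD4 CD44-low cells.

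Genes with the most similar profile were ranked by Pearson correlation of log2 (CPM plus 10) over 16 values, the 8 populations in 2 libraries, among 3434 genes. The values share libraries and depth and include the very small CD8 sums, so the coefficients are descriptions. For S1pr1 the closest were Gm9493 (0.91) and the ribosomal protein genes Rps7, Rpl14, Rpl17 and Rpl13a (0.88 to 0.89). For S1pr3 they were Dph5 (0.85), Eef1g, Immp2l, Pdcd2l and Gm4610 (0.66 to 0.73). S1pr4 was closest to Rnaset2a (0.90), Rbm7, Pitpnc1, Gramd1a and Vps37b. Klf2 was closest to Sike1 (0.78), Tagln2, Tuba1a and Gm9844 and had the weakest top value of the set. Cd69 was closest to Naa50 (0.93), Psmg4, Stk17b, Phb and Hnrnpdl.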

How the data were processed

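UMI counts per gene and droplet and antibody-tag counts per droplet had been deposited as whole numbers with no normalization. Cell Ranger 3.0.2, bcl2fastq and the build mm10 are listed in the submitters' processing notes. No source used here says how antibody tags were counted. Droplet prefixes m1 and m2 were read as Main1 and Main2. Of 11713 gene identifiers 11682 matched a symbol in GENCODE vM21. The fewest droplets with a UMI for any gene was 15, and the table lists 0 mitochondrial genes, which points to a filter before deposit. No droplet was removed here, and doublets were not called.

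Members, gates and lists were chosen with earlier results of these data known. A centred log-ratio across droplets was taken of the antibody counts, and a Gaussian mixture of 2 components (scikit-learn 1.9.0) gave positive droplets at a posterior above 0.5. The T gate was CD3-positive and negative for B-lineage antigens, and CD44-high and CD44-low were its upper and lower tertile within CD4 or CD8a cells. The B gate held B-lineage-positive, CD3-negative droplets. Marginal zone took droplets under the IgD median whose CD21/35 was in the top 25%, and follicular took the other droplets of CD21/35 with IgD not under the median. B-1-like took IgD under the median, CD21/35 below the top 25%, IgM at or above the median and CD5 in the top 25%. NK took 5 or more NKp46 counts without lineage antigens.

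UMIs were summed per library and population and tested with edgeR 4.0.16 (quasi-likelihood, TMM, R 4.3.3) with the library as a block, for genes with 50 or more UMIs, at a Benjamini-Hochberg adjusted p under 0.05 over all genes tested. The block pairs populations by construction, since each library supplies both. It leaves 1 residual degree of freedom, and in 4 of 7 fits the prior degrees of freedom were infinite, so each gene took the shared variance trend. Intervals of CPM (Poisson) and shares (binomial, exact, 95%) cover counting error only. Alternatives were DESeq2 1.42.0, RLE size factors, no block, other gates, other UMI minimums and each library alone. Named genes were the 5 members, genes of the cell type and state marker lists, called genes of the wider list (at most 8 per comparison, by size) and the 5 most similar genes per member, and some of these are not reported here. Arhgef1 and Mef2c in the marginal zone comparison, and S1pr5 and S1pr2, fall outside this rule and were named after their values were seen. The scripts were tested on simulated data.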

Additional observations from a re-analysis of the deposited data

Results flagged for a closer look

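Cd69 values by CD44 had opposite signs in the CD8 and CD4 gates, which drew attention to them, but the CD8 counts are too few to read a direction. CD8 CD44-high cells had 1 UMI in Main1 and 8 in Main2, and CD44-low cells had 0 and 2, with 1 droplet holding 55.6% of the CD44-high UMIs. In CD4 T cells the log2 ratio of CD44-high over CD44-low cells was -0.99 in Main1 and -0.30 in Main2. The difference of the log2 fold changes, CD8 minus CD4, was 1.89 (SE 1.24) in an edgeR fit over the 4 populations with the library as a block, added after the data were seen. Its unadjusted p was 0.127 and its edgeR adjusted p 0.998 over 1743 genes, so the difference did not pass.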

How the results depend on the processing

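Of 25 results for members that were tested, 8 were called, and 236 recomputed tests gave 207 with the same direction and side of the threshold, 10 that lost and 8 that gained a call and 11 that changed sign. None of the 11 was a called result. Klf2 between B-1-like and follicular cells turned to -0.16 (log-ratio within each droplet), -0.17 (other gate boundaries), -0.0056 (no UMIs of another lineage), -0.0229 (DESeq2) and -0.0478 (10 or more UMIs), and S1pr1 there to 0.0213 (droplets under 4000 UMIs) and 0.0369 (no UMIs of another lineage). Without UMIs of another lineage Klf2 became 0.39 between CD44-high and CD44-low CD4 cells and 0.0806 between CD4 CD44-low and follicular cells, and S1pr1 became 0.27 between CD8 and CD4 cells. With gates set within each library Klf2 was 0.0096 between CD44-high and CD44-low CD4 cells.

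Counts of genes called moved as follows, and the cause was not tested. DESeq2 called 189 genes between marginal zone and follicular cells (edgeR 806), 116 for B-1-like against follicular (218), 4 for CD4 by CD44 (156), 3 for CD8 by CD44 (17), 17 for CD8 against CD4 (55), 187 for NK against T (589) and 312 for CD4 CD44-low against follicular (514). Without the library block, which pairs the samples, the counts were 529 for marginal zone, 64 for CD4 by CD44, 13 for CD8 against CD4 and 0 for CD8 by CD44 in edgeR (7 at an unadjusted p under 0.05). The log-ratio within each droplet gave 656 for B-1-like, 85 for CD8 against CD4, 853 for CD4 CD44-low against follicular and 0 for CD8 by CD44 in edgeR (56 unadjusted), and gates set within each library gave 19 for CD8 against CD4 and 0 for CD8 by CD44 in edgeR (19 unadjusted). Other gate boundaries gave 275 for NK, 783 for CD4 CD44-low against follicular and 3 for CD8 by CD44. Droplets under 4000 UMIs gave 62 for CD4 by CD44 and 35 for CD8 against CD4. Without UMIs of another lineage, where fewer genes are tested, the counts were 117 for B-1-like, 45 for CD4 by CD44, 2 for CD8 against CD4, 216 for NK and 299 for CD4 CD44-low against follicular. RLE size factors gave 454 for B-1-like and 26 for CD8 against CD4. A minimum of 10 UMIs gave 500 for B-1-like, 93 for CD4 by CD44, 2 for CD8 by CD44 and 790 for CD4 CD44-low against follicular. CD8 by CD44 was not run under 4000 UMIs or without UMIs of another lineage, since a library then held no droplet. A library alone gave a log2 fold change with no test, 50 in all, of which 5 changed sign, none of a called result. In Main1 alone these were S1pr1 in B-1-like against follicular cells (0.0072) and CD8 against CD4 (0.23) and Cd69 in CD4 CD44-low against follicular cells (0.26), and in Main2 alone Klf2 in B-1-like against follicular cells (-0.49) and NK against T (-0.13). Of called results, 2 shifted by more than 1.5 times, both in Main1 alone, to 0.37 for S1pr1 in marginal zone against follicular cells and to -0.51 for S1pr1 in CD4 by CD44. Cd69 in Main1 alone was -0.76 for marginal zone, -1.97 for CD8 against CD4 and -1.19 for CD4 by CD44, and S1pr4 in Main2 alone was -1.14 for B-1-like. Few UMIs limit S1pr3 in the B-1-like, CD4, CD8 and NK populations. They also limit each member in CD8 cells split by CD44, and S1pr1 and Cd69 in NK cells.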
